A study of Mus musculus with 8 samples.

Results

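S100a6 and S100a16 are neighbouring genes for small calcium-binding proteins, and their RNA was followed in whole small intestine of wild type (WT) and Smarcad1-KO (KO) mice. Both were picked by name from the deposited table, as 2 of its 119 genes. RNA had been sequenced from 4 WT and 4 KO libraries, numbered 1 to 4 in each group, all from C57BL/6 animals that the study's methods give as males of an SOPF colony, of an age not given in the sources used here. KO animals were Smarcad1 fl/fl, with loxP sites around an ATP-binding part of Smarcad1, a chromatin remodeler, in a line kept from 1 targeted ES cell clone, and carried the Vil-Cre transgene, whose Villin promoter drives Cre in the intestinal epithelium. The deletion was therefore limited to epithelial cells, while the RNA came from the entire gut wall. Whether the WT animals carried the floxed allele or Cre was not given in the sources used here. In RNA of mixed tissue, fewer cells of a type and less RNA per cell cannot be told apart.

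S100 proteins are small EF-hand proteins that work as dimers. On binding calcium they open a surface that holds partner proteins, and so pass calcium signals on to enzymes, the cytoskeleton and membranes. S100A6, also called calcyclin, is known from proliferating and stressed cells, from epithelia and from fibroblasts, and it binds annexins and the calcyclin-binding protein. S100A16 is a broadly expressed member of the family that is less well understood. In mouse, most S100a genes stand in a tight cluster on chromosome 3.

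S100a6 occupied chr3:90612894-90614414 and S100a16 chr3:90537254-90543151 (GRCm38), both on the plus strand, with 69.7 kb between them. In GENCODE mouse release 21, 12 S100a genes lay within 185 kb there, and S100a6 and S100a16 were the 2 of them that the table held. Another 5 coding genes started between the members, namely S100a3, S100a2, Gm42674, S100a4 and S100a5, and these were not analysed here. No other annotated gene overlapped either counted span. No other gene of the table started within 1 Mb of them. The nearest listed gene on the far side of S100a6, Tmod4, which encodes a tropomodulin that caps actin filaments, started 4.51 Mb away and went the other way, from a WT mean of 0.142 ± 0.0568 RPKM to a KO mean of 0.585 ± 0.189 RPKM (SD, 4 libraries each, limma adjusted p = 4.93e-04).

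**Figure D1:**
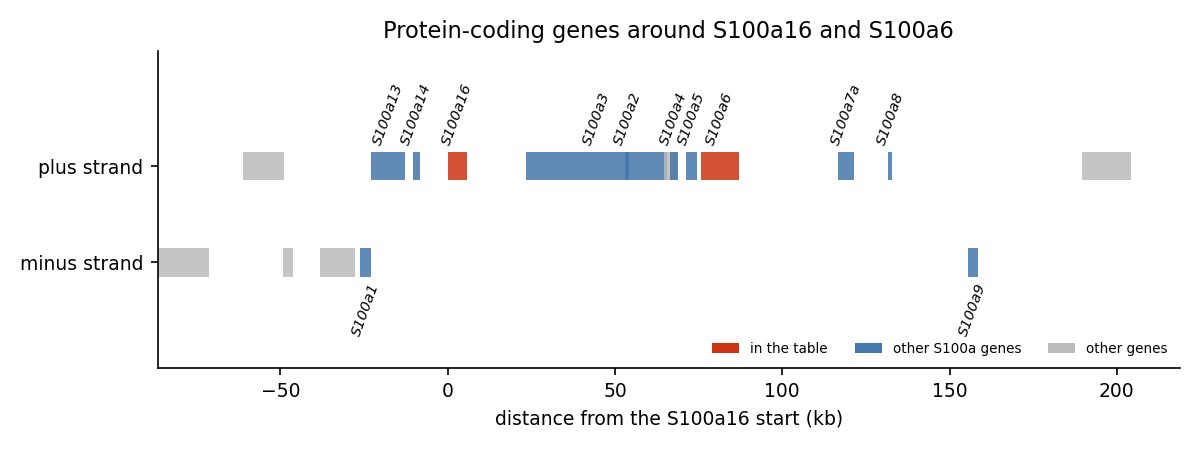
Protein-coding genes around both members, drawn to scale as distance in kb from the S100a16 start, with plus strand genes above and minus strand genes below. S100a16 and S100a6, in red, are separated by 69.7 kb between the counted spans, which hold other S100a genes, in blue, and grey genes are of other families. Bars follow the GENCODE models, in which S100a6 reaches further downstream than the counted span.

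The sequence just upstream of each start is shown so that any letters the neighbouring genes share can be read off. Each line gives the 250 bases before the start from RefSeq (GRCm38.p6, plus strand), at chr3:90612644-90612893 for S100a6 and chr3:90537004-90537253 for S100a16. Capitals mark the only matches to the 8 motifs searched on both strands.
S100a6: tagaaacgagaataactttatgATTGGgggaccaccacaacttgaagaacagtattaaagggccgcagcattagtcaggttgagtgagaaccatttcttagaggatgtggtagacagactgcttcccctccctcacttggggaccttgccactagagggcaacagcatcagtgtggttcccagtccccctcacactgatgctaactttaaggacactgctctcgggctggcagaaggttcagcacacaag
S100a16: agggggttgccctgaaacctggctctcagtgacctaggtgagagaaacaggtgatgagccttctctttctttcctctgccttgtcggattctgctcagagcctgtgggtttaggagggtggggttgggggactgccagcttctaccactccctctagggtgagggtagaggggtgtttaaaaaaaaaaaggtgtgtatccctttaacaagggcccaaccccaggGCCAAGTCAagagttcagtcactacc
The S100a6 window held a CCAAT box on the minus strand at -228, a motif in 37.4% of all 32817 RefSeq windows of 300 bases. An E-box, CACGTG, lay at +15 of S100a6, just inside the transcript, and 7.15% of windows have it. The S100a16 window held TGACNNNGC, the core of the antioxidant response element, on the minus strand at -26, which 12.4% of windows have. A window at a later S100a16 start held a GC box, GGGCGG, at -30, as 35.6% of windows do. The TATA box (TATAAA) was in none of the 3 windows, nor was the AP-1 site (TGACTCA), the STAT site (TTCNNNGAA) or the NF-kB core, and no motif was shared by S100a6 and S100a16. These matches are letters in a window and were not tested for binding.

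Smarcad1 itself served as a check of the labels. Its mean was 0.334 ± 0.0288 RPKM in WT libraries and 0.235 ± 0.0308 RPKM in KO libraries (SD, n = 4 each). All 4 KO libraries were below all 4 WT libraries (two-sided exact permutation p = 0.0286), as in 22.7% of the 119 genes. Most of its signal remained, in a span that also covers the exons that Cre leaves in place. The RNA also came from cells outside the epithelium, where the deletion was not made. The part of each in the remaining signal was not tested. RPKM here divides the reads of a gene by the length of its genomic span, introns included, and by the mapped reads. The libraries held 56981718 to 78026422 mapped reads. The table kept genes that the authors had selected with DESeq2 on these same libraries. Each p-value, that of Smarcad1 included, thus describes genes already chosen and is not independent evidence. Labels named the libraries only by number, so p-values measure the spread between these samples.

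S100a6 was abundant and was lower in KO in each library. Its WT values were 82.0, 79.4, 88.9 and 78.3 RPKM in libraries 1 to 4. Its KO values were 61.1, 73.8, 75.04 and 58.9 RPKM. The groups did not overlap, and 3.28 RPKM separated the highest KO from the lowest WT library. Within KO the libraries stood apart as 1 and 4, near 60, and 2 and 3, near 75, while no WT library stood far from the rest.

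The mean of S100a6 fell from 82.1 ± 4.78 RPKM (WT) to 67.2 ± 8.41 RPKM (KO, SD, n = 4 libraries a group), which is 18.2% lower. The two-sided exact permutation p was 0.0286, and no lower p can be had with 4 libraries a group. On the log2(RPKM + 0.1) scale the change was -0.30 ± 0.12 (SE, 95% interval -0.55 to -0.04, limma adjusted p = 0.0380 over the 119 genes). In terms of the level, the interval ran from 0.681 to 0.974 of WT. This was a small change for the table, placing 98th of 119 by size and 40th of the 60 genes that were lower in KO, whose median was -0.39. Of all 119 genes, 79.0% passed limma and 30.3% passed it with a lower level in KO, and the groups did not overlap in 71.4% of genes and lay apart with KO lower in 22.7%. Taken in either direction, passing and lying apart were thus usual in this selected table. Of the 60 genes that were lower in KO, 36 passed limma and 27 lay apart.

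The S100a6 call depended on which libraries entered the fit. Without WT replicate 1, 2 or 3, limma adjusted p was 0.0610, 0.0622 and 0.0873, and without KO replicate 1 or 4 it was 0.0945 and 0.102. It remained under 0.05 without WT replicate 4 (adjusted p = 0.0490), KO replicate 2 (adjusted p = 0.0326) or KO replicate 3 (adjusted p = 0.0285), each by limma. The direction was the same in all 8 of these fits. Without WT replicate 1 or 2 the change was -0.30 ± 0.13 and -0.31 ± 0.14 (SE), not smaller than with all libraries (-0.30 ± 0.12). It was smaller, at -0.26, -0.25 and -0.24, without WT replicate 3, KO replicate 1 and KO replicate 4.

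S100a16 was lower in KO on average, but this difference did not pass the test. Its WT values were 7.33, 7.91, 6.68 and 6.39 RPKM in libraries 1 to 4. Its KO values were 6.30, 6.36, 6.40 and 6.23 RPKM. The groups touched, since the highest KO library exceeded the lowest WT library by 0.00921 RPKM, and 3 of 4 KO libraries were below every WT library. The WT mean was 7.08 ± 0.679 RPKM and the KO mean 6.32 ± 0.0732 RPKM (SD, n = 4 a group), 10.7% lower (two-sided exact permutation p = 0.0571). On the log2(RPKM + 0.1) scale this was -0.16 ± 0.10 (SE, 95% interval -0.38 to 0.07, limma adjusted p = 0.166), or 0.768 to 1.05 of the WT level. It placed 112th of 119 by size of change. The difference of means was between 0.479 and 0.985 RPKM lower in KO when any 1 library was left out, the smallest without WT replicate 2 and the largest without WT replicate 4.

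**Figure D2:**
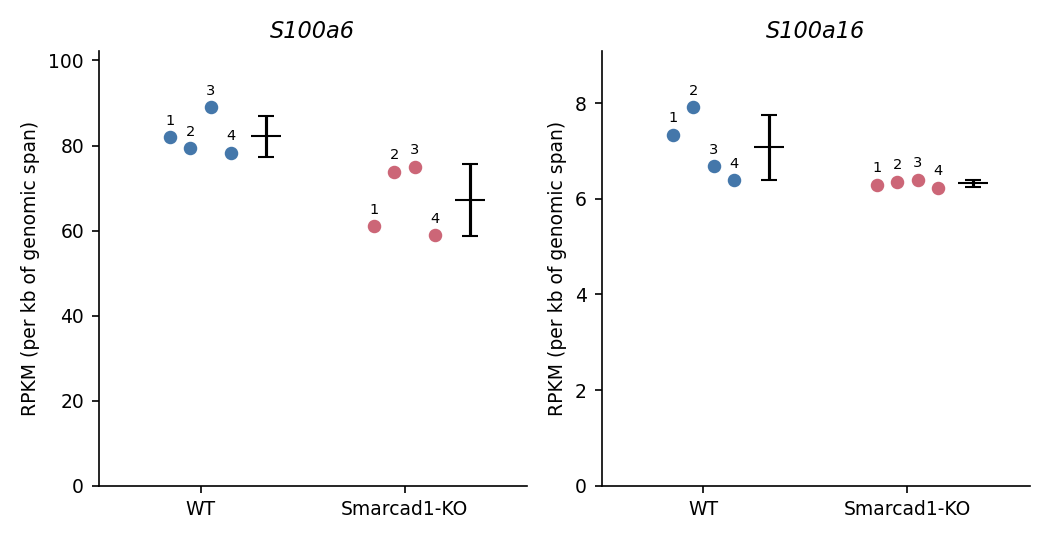
RPKM of S100a6 (left) and S100a16 (right) in each library, numbered by replicate, with the group mean ± SD (n = 4) as a black bar; the vertical axes start at 0. All KO values of S100a6 lie below 78.3 RPKM, the lowest WT value, while the KO values of S100a16 gather between 6.23 and 6.40 RPKM at the lower end of the WT spread.

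The spread of the members went in opposite directions. S100a16 varied by 9.59% of its mean (coefficient of variation, CV) in WT and by 1.16% in KO, an SD 9.28 times larger in WT. Counting alone would give a CV of about 2.0% at the 2200 to 2869 reads that stood behind its KO values, and the observed KO value was the second lowest of the 119 genes. A KO spread below the counting value occurred in 10 genes of the table, and a WT spread below it in 2. S100a6 varied by 5.82% in WT, the third lowest of the table, and by 12.5% in KO, against a counting CV of 1.14% and 1.21%. Over the 60 genes with a mean of at least 1 RPKM the median CV was 19.3% in WT and 13% in KO. The spreads are given as descriptions and were not tested between groups.

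Behind the KO values of S100a6 stood nearly equal numbers of reads at unequal depth. S100a6 had 6859, 6584, 6953 and 6988 reads in KO libraries 1 to 4. These libraries had 73863888, 58634589, 60920761 and 78026422 mapped reads, so the deepest libraries, 1 and 4, gave the lowest RPKM. S100a16 did otherwise, with 2744, 2200, 2300 and 2869 reads, in step with depth. In WT, S100a6 had 7104, 7017, 8556 and 8380 reads and S100a16 had 2465, 2712, 2493 and 2652 reads, at 56981718, 58132035, 63243539 and 70345518 mapped reads. KO libraries 1 and 4 both lay below KO libraries 2 and 3 in 27 of the 119 genes (22.7%), 16 of them lower in KO.

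With mapped reads as a further term, an alternative chosen after the data were seen, the S100a6 change was -0.22 ± 0.11 (SE, limma adjusted p = 0.104) and the S100a16 change -0.12 ± 0.11 (SE, limma adjusted p = 0.325). The S100a6 call was thus lost, with the direction kept. The part of depth in the result was not tested beyond this fit.

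**Figure D3:**
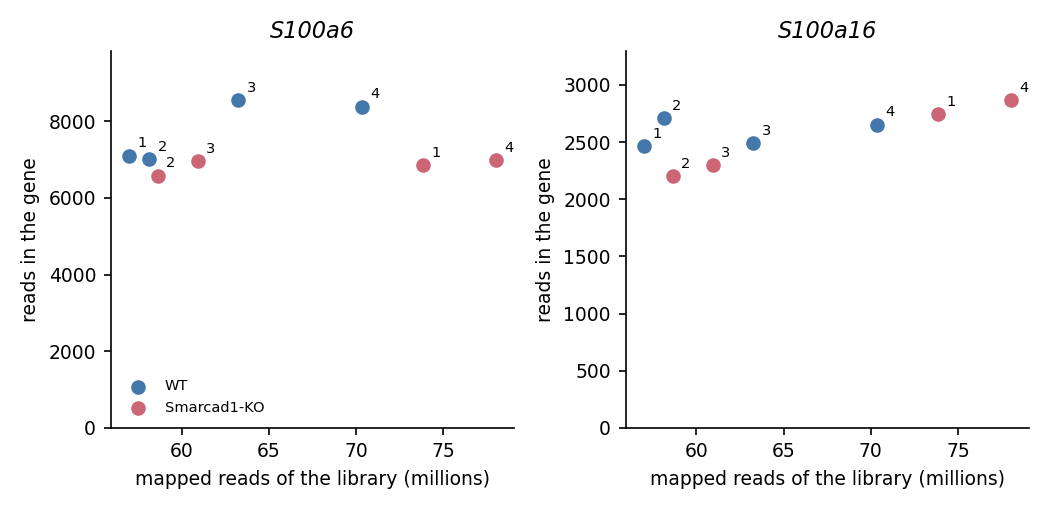
Reads in S100a6 (left) and S100a16 (right) against the mapped reads of each library, numbered by replicate; the vertical axes start at 0. KO reads of S100a6 stay between 6584 and 6988 from 58634589 to 78026422 mapped reads, while those of S100a16 go from 2200 to 2869.

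To ask whether the members changed by different amounts, the ratio of S100a6 to S100a16 was taken within each library. A scale factor shared by both genes cancels there, but a relation to depth that differs between the genes does not. In WT the ratio was 11.04, 9.92, 13.1 and 12.1 for replicates 1 to 4. In KO it was 9.56, 11.4, 11.6 and 9.31. The lower KO ratios were those of the deepest KO libraries, 1 and 4, while in WT the shallower libraries, 1 and 2, had the lower ratios. The groups overlapped. The mean log2 ratio was 3.52 ± 0.17 in WT and 3.38 ± 0.17 in KO (SD, n = 4 each), which differed by -0.14 (two-sided exact permutation p = 0.257). Differences between -0.50 and 0.22 were not rejected by the same test at the 95% level, so these 8 libraries did not show that the members differed in their change, and a difference of the size of either change lay inside the interval.

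S100a6 was the higher gene on either length scale. Per kilobase of genomic span its mean level was 11.6 times that of S100a16 in WT and 10.6 times in KO. Because exons make up 52.4% of the S100a6 span of 1521 bp but 24.4% of the S100a16 span of 5898 bp, the gap narrowed per kilobase of annotated exon. On that scale S100a6 had 156.8 ± 9.13 and S100a16 29.0 ± 2.78 reads per kilobase, scaled to mapped reads like RPKM, in WT (SD, n = 4 each), and 128.2 ± 16.1 against 25.9 ± 0.30 in KO (SD, n = 4 each). The ratio of these levels was 5.40 in WT and 4.95 in KO. By RPKM per span, S100a6 stood 8th and S100a16 31st of the 119 genes. The 7 genes above S100a6 were Itln1, which encodes a lectin of Paneth and goblet cells, and 6 genes of the defensin cluster on chromosome 8.

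**Figure D4:**
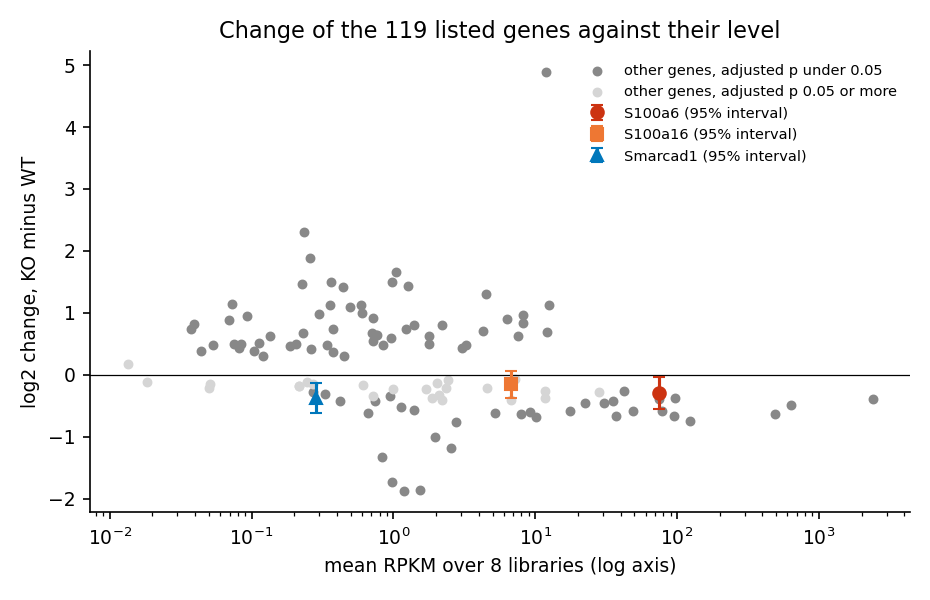
Log2 change from WT to KO against mean RPKM (log axis) for the 119 genes, with 95% limma intervals for S100a6, S100a16 and Smarcad1. S100a6 at -0.30 and S100a16 at -0.16 lie near 0 on the abundant side of the table, and only the interval of S100a16 among the 3 reaches above 0.

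Scaling moved both members together. The deposited RPKM are scaled to mapped reads. When factors were instead taken from the listed genes (trimmed mean of M values, with limma's voom on the recovered reads), the median of all 119 genes moved from -0.07 to -0.24, and S100a6 and S100a16 moved with it to -0.47 ± 0.12 and -0.33 ± 0.11 (SE, limma adjusted p = 0.00420 and 0.0115). Relative to the median of all genes, S100a6 was at -0.23 as deposited and -0.22 with these factors, and S100a16 was at -0.09 with either. A factor per library shifts every gene by about the same amount, so this position was bound to hold and nothing is read from it. This scaling rests on genes selected for their change and moved the share of calls that were lower in KO from 38.3% to 50.8%. With it 118 of the 119 genes passed limma, against 94 as deposited. With voom on reads scaled to mapped reads, S100a6 was -0.30 ± 0.15 (SE, limma adjusted p = 0.0765).

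**Figure D5:**
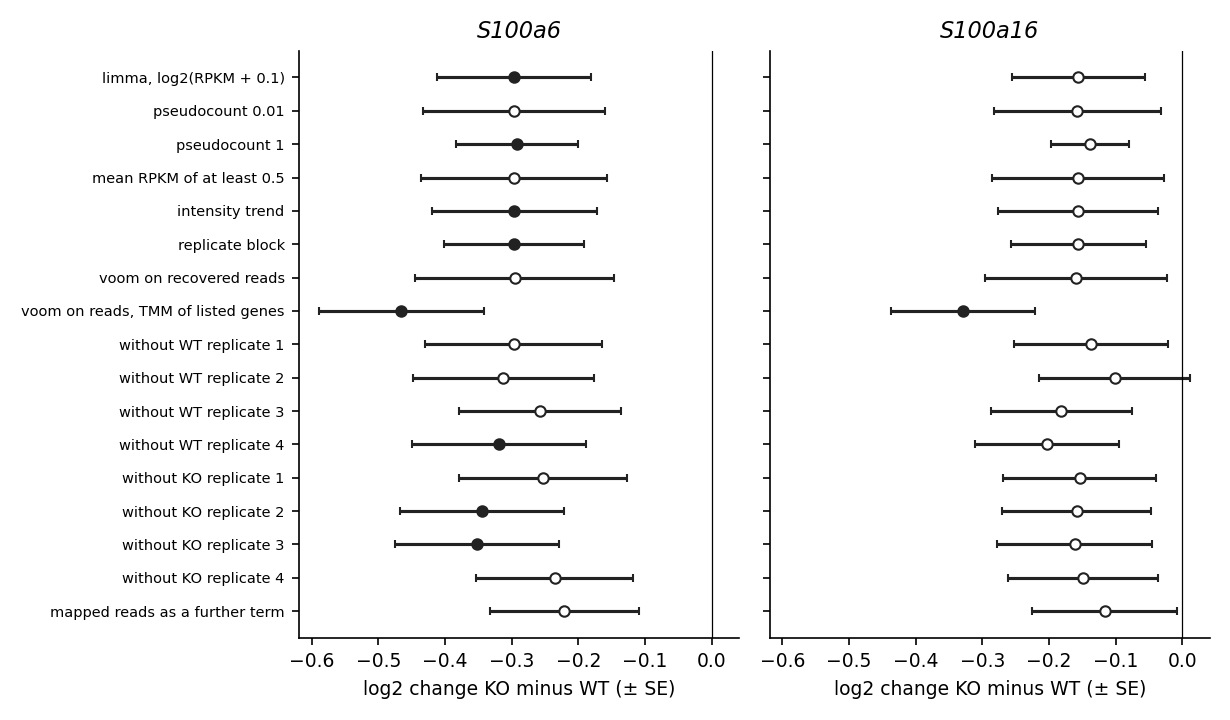
Log2 change from WT to KO (± SE) of S100a6 (left) and S100a16 (right) under each setting, filled where the limma adjusted p over the tested genes was under 0.05. Every point is below 0, from -0.47 to -0.22 for S100a6 and from -0.33 to -0.10 for S100a16.

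The listed genes most like each member over the 8 libraries were found by Pearson's r of log2(RPKM + 0.1), a description across libraries that share the WT and KO split and the depth, with no test. For S100a6 they were Defa3 (r = 0.85), Defa17 (r = 0.83), Gm14851 (r = 0.81), St3gal6 (r = 0.81) and Gm15315 (r = 0.79). Defa3 and Defa17 encode antimicrobial alpha-defensins of Paneth cells, Gm14851 and Gm15315 lie in the same cluster on chromosome 8, and St3gal6 encodes a sialyltransferase. Defensin genes have near-identical copies, where the counting of unique hits can lose reads, so their values are uncertain. For S100a16 they included Gprc5a (r = 0.81), which encodes an orphan receptor induced by retinoic acid, Slc20a1 (r = 0.80), a phosphate transporter, Fzd9 (r = 0.75), a Wnt receptor, and Defa-rs7 (r = 0.74).

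S100a6 and S100a16 had no gene in common among these. Each was only moderately like the other (r = 0.53), with S100a16 38th in the order for S100a6 and S100a6 30th in that for S100a16. After the group means were taken out, r between the members was 0.01. For S100a6 and Defa3 it was 0.62, and for S100a16 it was 0.60 with Gprc5a and 0.68 with Slc20a1. These 3 genes had been picked for a high r over the same libraries, so their values cannot be set against that of the members. The order by r used the difference between WT and KO as well, so the direction of these genes in KO was largely fixed by their choice and nothing is read from it.

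Markers of Paneth cells moved the same way as S100a6. Of 14 Paneth markers the table held 10, and all 10 passed limma with lower levels in KO, by -0.69 to -0.37 (log2). Among all the preselected genes, 79.0% passed limma and 30.3% passed with KO lower. The marker list was chosen with earlier results of these data known. All but Itln1 and Ang4 were defensin genes on chromosome 8, whose values are uncertain because of near-identical copies. The 10 genes therefore do not count as 10 separate markers. Their summed level was 3565 to 4984 RPKM in WT libraries and 2870 to 3795 RPKM in KO libraries, so that the sums overlapped. Most of each sum was Defa24, with 2209 to 3029 RPKM in WT and 1712 to 2542 RPKM in KO libraries. The overlap therefore mainly reflects that gene, and single markers differed in whether their groups overlapped. Of 6 pancreatic acinar markers the table held only 2, Clps and Pnliprp2. Both were lower in KO, with summed levels of 26.2 to 37.1 RPKM (WT) and 20.1 to 27.0 RPKM (KO). The rest of that list was absent, so nothing is read about acinar cells from these 2 genes. Treh, the trehalase of enterocytes, was the only gene of 11 enterocyte markers in the table and was higher in KO, with 4.24 to 7.05 RPKM across WT and 7.98 to 13.3 RPKM across KO libraries (limma adjusted p = 0.00269). Of 4 stem cell markers Ascl2 was present, with 1.56 to 3.30 RPKM across WT and 1.66 to 1.96 RPKM across KO libraries (limma adjusted p = 0.0897). The part of these cell types in the S100a6 result was not tested. Fibroblast, smooth muscle, endothelial, lymphoid, myeloid, goblet, tuft, enteroendocrine and neural lists had 0 genes in the table, so the tissue label could be checked only by its Paneth and enterocyte genes.

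Besides the members, few genes of a calcium list were in the table. The list, chosen with earlier results known, held 18 S100 family genes, of which 2, the members, were in the table (1 lower, 1 not past limma), and 12 S100A6 partners such as annexins and the calcyclin-binding protein, of which 0 were. Of 38 calcium-dependent or calcium-handling genes, 5 were in the table, 2 of them higher, 1 lower and 2 not past limma. Over all 119 genes, 58 passed limma with KO higher and 36 with KO lower. The median change of the 5 was -0.18 beside -0.07 over all 119 genes. P2rx4, an ATP-gated channel that lets calcium in, rose from 2.61 ± 0.388 to 3.53 ± 0.105 RPKM (SD, n = 4 each, limma adjusted p = 0.00883). Pcdh19, a calcium-dependent adhesion protein, rose from 0.0842 ± 0.00764 to 0.186 ± 0.0235 RPKM (SD, n = 4 each, limma adjusted p = 6.35e-04).

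Camk2b, a kinase switched on by calcium and calmodulin, fell from 1.98 ± 1.17 to 0.399 ± 0.130 RPKM (SD, n = 4 each, limma adjusted p = 0.00400), with WT values spread from 0.659 to 3.23 RPKM. Adcy8, an adenylyl cyclase stimulated by calcium, was at 0.236 ± 0.0541 in WT and 0.196 ± 0.0166 RPKM in KO (limma adjusted p = 0.206). Clca6, of the family of calcium-activated chloride channel regulators, was at 31.2 ± 10.5 and 25.0 ± 3.52 RPKM (limma adjusted p = 0.256). The 5 genes of this calcium list thus had no common direction, and the table was not searched for calcium genes outside the list.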

How the data were processed

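RNA was isolated from frozen whole small intestine and profiled by mRNA-seq, as the paper names it, in 4 WT and 4 KO libraries, grouped by their titles. The authors trimmed reads with Trim Galore 0.4.1, mapped them to GRCm38 with HISAT2 2.0.1 (per the labels), kept unique hits and counted them over exons of merged transcripts in SeqMonk. The deposited table held RPKM per library, the authors' group means and a DESeq2 FDR p-value used for their selection. The means and the p-value were not used. Multiplied by genomic span, RPKM gave whole reads, within 0.05, for 100% of 939 values above 0 at a fitted depth, the smallest that did so. The counts were recovered in this way for depth, voom and reads per exon.

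All 119 genes were tested with limma 3.58.1 in R 4.3.3 (lmFit, eBayes, group as the only term) on log2(RPKM + 0.1), with Benjamini-Hochberg adjustment and a threshold of 0.05. Single values were compared by exact permutation of libraries. Python 3.11.15 was used. Scripts were tested on simulated data. The members and lists were chosen with earlier results of these data known. Named genes were the members, Smarcad1, the 5 genes most like each member, list genes and the nearest listed neighbours, of which 2 genes are not reported here. Alternatives were other pseudocounts, a filter at 0.5 RPKM, an intensity trend, permutation per gene, voom, trimmed mean scaling, the replicate number as a block and each library left out. Protein sequences were not used here.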

Additional observations from a re-analysis of the deposited data

Results flagged for a closer look

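In 38 groups of 4 libraries, covering the members, their ratio, Smarcad1, the genes most like the members and the calcium genes, 1 library stood apart from the others of its group by Dixon's criterion, where chance gives about 1 in 20. It was a KO library of Gm15315, a gene of the defensin cluster, with a gap of 0.861 of the range of the group. No value of S100a6 or S100a16 stood apart in this way.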

How the results depend on the processing

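S100a6 was lower in KO under each setting run, but its limma call at 0.05 was lost at a pseudocount of 0.01 (-0.30, adjusted p = 0.0666), among genes of at least 0.5 RPKM (-0.30, adjusted p = 0.0707), with voom on recovered reads (-0.30, adjusted p = 0.0765) and with mapped reads as a further term (-0.22, adjusted p = 0.104). Over its 9 settings other than leaving out a library, adjusted p ran from 0.00420 to 0.104. Leaving out each library gave -0.35 to -0.24 for S100a6, with adjusted p from 0.0285 to 0.102 and the call lost in 5 of 8 fits. S100a16 passed only with trimmed mean scaling (-0.33, adjusted p = 0.0115, range over these 9 settings 0.0115 to 0.325). With that scaling 118 of the 119 genes passed limma, so passing there sets neither member apart. On log2(RPKM + 0.1), 94 of the 119 genes passed limma. Of the 77 genes of at least 0.5 RPKM 56 did, where fewer genes were tested. The difference of the log2 ratio stayed between -0.21 and -0.08 without any 1 library. The smallest exact p is 0.0571 once a library is left out.

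Replicate numbers were not taken to pair the libraries. Same-numbered deviations correlated at 0.27, 0.21, -0.11 and -0.03 across 77 genes, which are not independent replicates. Libraries of unlike number were not compared, so these values cannot decide whether there was pairing. With the replicate block, S100a6 had adjusted p = 0.0422, S100a16 0.198 and 90 genes passed by limma, and the ratio had an exact sign-flip p of 0.375, where 4 differences allow no p below 0.125.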
